A study of Mus musculus with 24 samples.

Results

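The genes described here are the carriers that take up and hand on sugars, amino acids and small peptides, measured by bulk RNA sequencing of the mouse distal jejunum. They were chosen by name. A gene counted as a member if its symbol was Slc1a, Slc2a, Slc3a, Slc5a, Slc6a, Slc7a, Slc15a, Slc36a, Slc38a or Slc43a followed only by digits, and if 3 or more of the 24 libraries held 10 or more counts of it. Of 34471 genes in the expression table, 87 had such a name, and 76 of them reached the count minimum. They were 21 members of the sugar families Slc2a and Slc5a and 55 members of the other 8 families. By family they were 6 of Slc1a, 12 of Slc2a, 2 of Slc3a, 9 of Slc5a, 13 of Slc6a, 13 of Slc7a, 5 of Slc15a, 3 of Slc36a, 10 of Slc38a and 3 of Slc43a. The 11 names that did not reach it were *Slc1a6*, *Slc36a3*, *Slc38a11*, *Slc5a10*, *Slc5a2*, *Slc6a12*, *Slc6a16*, *Slc6a2*, *Slc6a21*, *Slc6a3* and *Slc6a5*.

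The study crossed sex, genotype and treatment in 8 groups of 3 mice. Wild type mice and mice with a germline disruption of *Ptk6* (*Ptk6*-/-), a non-receptor tyrosine kinase of epithelial linings, drank regular water or water with 100 mM succinate for 7 days. Each combination was sampled in males and in females. All mice shared the C57BL/6 background, to which the mutant line had been backcrossed for more than 20 generations. They came from different litters of a single colony and were at least 9 weeks old at the end. Every cell type of the wall contributed to each library, so fewer cells of a type and less RNA per cell cannot be told apart in these data.

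Nutrient carriers of the enterocyte work in pairs across the cell. At the brush border, sodium or proton gradients draw substrates in from the lumen: SGLT1 (*Slc5a1*) takes glucose and galactose, B0AT1 (*Slc6a19*) takes neutral amino acids, and PEPT1 (*Slc15a1*) takes short peptides. At the basolateral side, facilitators and exchangers such as GLUT2 (*Slc2a2*) and the heavy and light chain pair 4F2hc and y+LAT1 (*Slc3a2* and *Slc7a7*) pass them to the blood. Several carriers need a partner chain to reach the membrane, and some members of Slc5a move monocarboxylates, vitamins, inositol or choline rather than sugars.

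The libraries held 8080321 to 52824743 counts, and the members took between 0.143% and 0.779% of them (median 0.597%). *Ptk6* had 7 to 61 counts in the 12 *Ptk6*-/- libraries and 284 to 2405 in the 12 wild type libraries, as the genotype labels state. 3 libraries stood apart. In male wild type control 1 and male *Ptk6*-/- succinate 1, 51.2% and 29.7% of counts came from 18S ribosomal RNA. Female wild type succinate 2 held heart muscle RNA. Over a list of 10 heart genes, of which 9 passed the count minimum, it summed to 18390.5 CPM (counts scaled to the TMM-adjusted library size). It also held Y-linked RNA, with 74.3 CPM over 4 genes against under 1 CPM in each of the other 11 female libraries. Male libraries held 33.5 to 90.2 CPM of these genes, so this library lay within the male range. It was kept as female, as labelled, and the source of its Y-linked RNA was not tested. Over a list of 12 genes of enteric neurons and glia, all past the count minimum, male wild type succinate summed to 80.5 to 129 CPM and female wild type controls to 80.0 to 97.8 CPM. Enterocyte RNA, a list of 22 genes that all passed the count minimum, summed to 43315 to 47244 CPM in male wild type controls and 62658 to 68082 CPM in female wild type controls. All 12 genes of a list for the distal small intestine passed the count minimum, and so did 11 of 12 genes of a list for the proximal small intestine.

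Start sites of 4 members are shown because these genes carry the results below: *Slc5a1* and *Slc3a1* for their high level, *Slc36a1* for the genotype comparison and *Slc7a15* for succinate. The windows are the 250 bases before the start of transcription in RefSeq's mouse annotation (GRCm38.p6), written 5′ to 3′ on the strand of the gene. Such a window was listed for 56 of the 76 members. Capitals mark the motifs searched on both strands: the E-box CACGTG, a site of the caudal-type factor CDX (TTTATNG), a site of HNF4 (CAAAGTCCA) and the amino acid response element TGATGNAA. No motif overlapped another in these 4 windows.
*Slc5a1*: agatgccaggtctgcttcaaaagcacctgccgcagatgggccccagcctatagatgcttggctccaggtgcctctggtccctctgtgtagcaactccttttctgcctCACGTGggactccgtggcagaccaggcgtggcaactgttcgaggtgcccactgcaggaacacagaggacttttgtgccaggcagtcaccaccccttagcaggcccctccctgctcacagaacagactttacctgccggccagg
*Slc3a1*: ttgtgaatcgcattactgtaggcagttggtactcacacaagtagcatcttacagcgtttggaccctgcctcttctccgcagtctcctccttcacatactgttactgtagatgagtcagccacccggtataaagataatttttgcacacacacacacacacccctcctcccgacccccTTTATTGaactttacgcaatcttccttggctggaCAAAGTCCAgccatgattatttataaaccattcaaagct
*Slc36a1*: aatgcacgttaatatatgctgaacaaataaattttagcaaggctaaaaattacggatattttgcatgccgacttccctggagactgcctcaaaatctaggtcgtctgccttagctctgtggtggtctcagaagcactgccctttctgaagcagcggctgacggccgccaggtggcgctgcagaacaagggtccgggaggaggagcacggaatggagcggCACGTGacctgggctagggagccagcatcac
*Slc7a15*: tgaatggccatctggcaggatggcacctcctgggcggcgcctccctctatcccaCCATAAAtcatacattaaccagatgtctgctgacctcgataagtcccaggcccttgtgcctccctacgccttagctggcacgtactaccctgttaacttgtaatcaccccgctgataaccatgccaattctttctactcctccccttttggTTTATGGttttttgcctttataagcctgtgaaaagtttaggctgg
The *Slc5a1* window (chr5:33103969-33104218, plus strand) has an E-box that starts 143 bases before the start site. In the *Slc3a1* window (chr17:85028097-85028346, plus strand) a CDX site lies at 73 bases and an HNF4 site at 39 bases before it. The *Slc36a1* window (chr11:55204090-55204339, plus strand) holds an E-box at 31 bases. The *Slc7a15* window (chr12:8599067-8599316, minus strand) holds CDX sites at 196 and 45 bases. An E-box was in 7 of the 56 member windows (12.5%) and in 6.04% of all 27026 windows of this length. The shares were 7.14% and 10.2% for the CDX site, 1.79% and 0.377% for the HNF4 site, and 3.57% and 3.53% for the amino acid response element. These matches are letters in a window, and no binding was measured. The windows of *Slc2a1*, *Slc1a4* and *Slc15a1* held none of the 4 motifs.

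The jejunum expressed a few carriers at high level and many at trace level. Levels of different genes are compared as the deposited FPKM, a fragment abundance scaled to transcript length and to the size of the library. *Slc5a1*, encoding SGLT1, had the highest mean over the 24 libraries at 183 FPKM (range 28.6 to 290.4) and alone made up a median of 20.1% of the summed FPKM of the members (9.97% to 29.6%). *Slc6a8*, the creatine carrier, followed at 111 FPKM. The next 6 belonged to uptake and export of amino acids and peptides: *Slc3a1* at 76.9, *Slc15a1* at 58.9, *Slc6a19* at 58.1, *Slc3a2* at 57.3, *Slc7a9* at 56.7 and *Slc7a7* at 40.7 FPKM. *Slc43a2*, an exporter of branched-chain and aromatic amino acids, had 25.1 FPKM, and *Slc5a8*, a sodium-coupled monocarboxylate carrier, had 19.8 FPKM. Together these 10 genes made up a median of 79.9% of the members' FPKM (65.8% to 84.0%).

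Within that order, most steps held in most libraries and some did not. *Slc5a1* exceeded *Slc6a8* in 22 of 24 libraries, and *Slc6a8* exceeded *Slc3a1* in 22. *Slc3a1* exceeded *Slc15a1* in 20. The neighbours *Slc15a1*, *Slc6a19*, *Slc3a2* and *Slc7a9* could not be ordered: each exceeded the next in 14, 14 and 12 of the 24 libraries. *Slc7a9*, the light chain of the cystine carrier at the brush border, exceeded *Slc7a7* in all 24, as *Slc7a7* did *Slc43a2*.

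**Figure D1:**
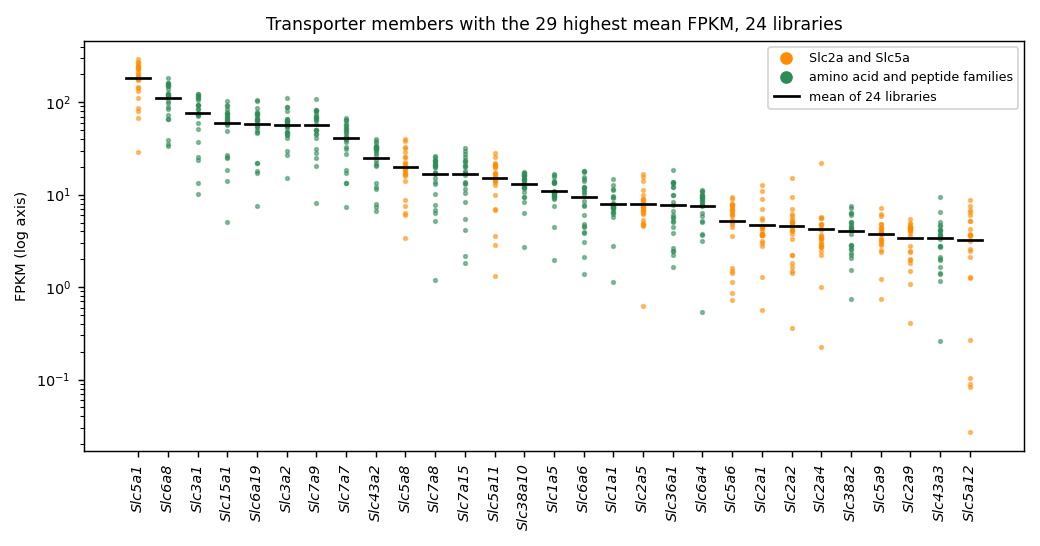
The 29 members with the highest mean FPKM, ordered by that mean; the vertical axis is FPKM on a log scale, each point is 1 of 24 libraries and each bar is the mean (a listed value of 0 has no point). *Slc5a1* leads at a mean of 183 FPKM, and *Slc5a12* spreads furthest downwards, with 1 library listed at 0.

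The other brush border members of the sugar families ran from 15.1 FPKM downwards, against 19.8 for *Slc5a8*. *Slc5a11*, a sodium-coupled inositol carrier, was the highest of them. The fructose carrier GLUT5 (*Slc2a5*) had 7.93 FPKM, and the vitamin carrier *Slc5a6*, which moves biotin and pantothenate, had 5.25. *Slc5a9*, a mannose carrier, had 3.79 FPKM, *Slc5a12*, a relative of *Slc5a8*, had 3.27, and *Slc2a7* had 2.32. On the basolateral side GLUT2 (*Slc2a2*) stood at 4.55 FPKM, close to the widely expressed glucose carrier GLUT1 (*Slc2a1*) at 4.70.

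Amino acid carriers of the brush border below the leading group were *Slc1a5*, a glutamine exchanger (10.9 FPKM), the taurine carrier *Slc6a6* (9.37), the glutamate carrier *Slc1a1* (7.94) and the proton-coupled carrier of small neutral amino acids *Slc36a1* (7.77). *Slc6a14*, which takes neutral and cationic amino acids, was near the floor at 0.0898 FPKM. Of the basolateral carriers, the light chain *Slc7a8* had 16.7 FPKM, *Slc38a2* had 4.01, *Slc7a6* had 0.952 and *Slc38a5* had 0.0313. PEPT1 stood far above the other peptide carriers: *Slc15a4* and *Slc15a3*, which serve lysosomes, had 1.12 and 0.985 FPKM, the kidney carrier *Slc15a2* had 0.472 and *Slc15a5* had 0.0356. A mean of at least 1 FPKM was reached by 13 of the 21 sugar family members (median 3.27 FPKM) and by 27 of the 55 others (median 0.985). The 36 members below it ran down to carriers known best from the nervous system, such as the glutamate carrier *Slc1a2* at 0.0350 FPKM.

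Neighbouring genes differed widely in level. *Slc6a18* and *Slc6a19* lie 1722 bases apart on chromosome 13 and had means of 0.151 and 58.1 FPKM. *Slc36a2* and *Slc36a1* lie 19273 bases apart on chromosome 11 and had 0.328 and 7.77. *Slc2a5* and *Slc2a7*, 4803 bases apart on chromosome 4, were closer at 7.93 and 2.32 FPKM. Whether strand was used in counting is not given in the sources used here, so reads of overlapping genes may be shared. The overlapping gene had 30.2 times the counts of *Slc2a12*, 6.13 times those of *Slc7a10*, 3.08 times those of *Slc5a3*, 1.28 times those of *Slc5a6* and 1.15 times those of *Slc15a3*, and the levels of these 5 members are uncertain.

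Loss of *Ptk6* in control males was the one comparison of 2 groups in which edgeR called a member. Levels of 1 gene are compared between groups as CPM scaled by the trimmed mean of M-values (TMM), and a gene was called where edgeR's quasi-likelihood test gave a Benjamini-Hochberg adjusted p under 0.05 and at least a 2-fold change. *Slc36a1* (ENSMUSG00000020261, chromosome 11, 55095176 to 55127156 of GRCm39) measured 40.0, 46.5 and 40.8 CPM in the 3 wild type males and 78.0, 94.5 and 141 CPM in the 3 *Ptk6*-/- males. Every *Ptk6*-/- library lay above every wild type library. The means were 42.4 ± 3.55 and 105 ± 32.7 CPM (SD, n = 3), and the log2 fold change of 1.28 (standard error 0.21, adjusted p = 0.0296) made it the 1 member of 70 tested that was called higher; none was called lower. Over all genes tested the same rule called 0.739%.

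The taurine carrier *Slc6a6* (ENSMUSG00000030096, chromosome 6, 91661034 to 91736047) passed the adjusted p without reaching 2-fold. It measured 108, 121 and 131 CPM in wild type and 176, 189.8 and 178 CPM in *Ptk6*-/- control males, again with no overlap, and its log2 fold change was 0.58 (standard error 0.11, adjusted p = 0.0355). These were the 2 members at an adjusted p under 0.05 with no fold threshold, where 4.23% of all genes passed. Below an unadjusted p of 0.05 lay 17 members, 15 higher and 2 lower in *Ptk6*-/-, against 25.2% of all genes. Among those higher were the light chain *Slc7a5* (6.71, 8.34 and 8.53 against 13.5, 11.1 and 15.0 CPM, log2 fold change 0.73 (standard error 0.17, adjusted p = 0.0502)) and the cationic amino acid carrier *Slc7a1* (27.7, 24.4 and 27.8 against 44.5, 32.5 and 44.0 CPM, log2 fold change 0.58 (standard error 0.16, adjusted p = 0.0675)). Both sets of libraries stood apart without overlap, and both adjusted p-values missed the threshold.

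Of the basolateral carriers *Slc7a8* and *Slc38a2* also had values in *Ptk6*-/- control males above every wild type value, with log2 fold changes of 0.48 (standard error 0.11, adjusted p = 0.0503) and 0.48 (standard error 0.14, adjusted p = 0.0753). In the sugar families SGLT1 (*Slc5a1*) did so, at 0.48 (adjusted p = 0.184), and so did the monocarboxylate carriers *Slc5a12* and *Slc5a8*, at 0.66 (adjusted p = 0.0853) and 0.73 (adjusted p = 0.0887). The 2 members lower at an unadjusted p under 0.05 were *Slc2a6*, at 3.40, 2.22 and 1.76 CPM in wild type and 1.14, 1.17 and 1.15 CPM in *Ptk6*-/- (log2 fold change -1.09 (standard error 0.34, adjusted p = 0.0981)), and *Slc15a2*, at 4.37, 3.42 and 2.55 and 1.34, 0.338 and 2.11 CPM (log2 fold change -1.46 (standard error 0.58, adjusted p = 0.160)). In all, 15 of the 70 members lay higher and 5 lower in *Ptk6*-/- without overlap of the 3 and 3 libraries, where 16.4% and 16.3% of all genes did. The median log2 fold change was 0.12 over the 21 sugar family members and 0.17 over the 49 others, and 0.017 over all genes.

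**Figure D2:**
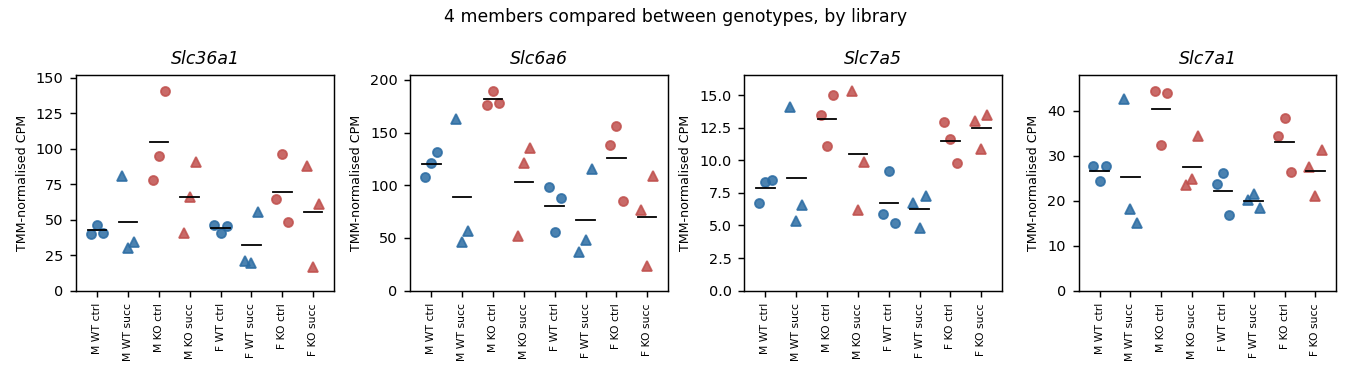
TMM-scaled CPM of 4 amino acid carriers in each of 24 libraries by group (M male, F female, WT wild type, KO *Ptk6*-/-, ctrl control, succ succinate); circles are controls, triangles succinate, blue wild type, red *Ptk6*-/-, and bars are group means. In control males all 3 *Ptk6*-/- values of each gene lie above all 3 wild type values, as for *Slc36a1* at 78.0, 94.5 and 141 against 40.0, 46.5 and 40.8 CPM.

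Male wild type control 1, with its high share of 18S RNA, did not carry the call: without it *Slc36a1* had a log2 fold change of 1.28 (adjusted p = 0.0346). Without male *Ptk6*-/- control 3, its highest library, the value was 1.01 and the adjusted p 0.118. Longer genes read higher in *Ptk6*-/- control males than in wild type, with a slope of log2 CPM on log2 length of 0.0937 to 0.133 against -0.0579 to 0.00898. With length as an offset *Slc36a1* stood at 1.13 (adjusted p = 0.0609) and *Slc6a6* at 0.34 (adjusted p = 0.159). No member was called in that fit, and its values for the other members are not reported here.

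In control females no member was called by edgeR, and DESeq2 called none, where edgeR called 0.0158% of all genes. At an unadjusted p under 0.05 lay 10 of 70 members, 7 higher and 3 lower in *Ptk6*-/-, against 11.1% of all genes. *Slc36a1* measured 46.2, 40.4 and 45.2 CPM in wild type and 64.5, 96.5 and 48.1 CPM in *Ptk6*-/- females, the same order without overlap as in males at a log2 fold change of 0.70 (standard error 0.29, adjusted p = 0.433). *Slc7a5* measured 5.87, 9.16 and 5.19 and 12.9, 11.6 and 9.79 CPM, also without overlap. The largest difference upwards belonged to the choline carrier *Slc5a7*, at 0.482, 0.324 and 0.177 against 0.661, 1.55 and 1.99 CPM (log2 fold change 2.11 (standard error 0.60, adjusted p = 0.367)), and *Slc1a3*, a glutamate carrier of glia, had 0.657, 0.540 and 0.950 against 2.69, 1.40 and 1.36 CPM (log2 fold change 1.38 (standard error 0.46, adjusted p = 0.376)).

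Downwards in control females, *Slc5a11* measured 108, 77.6 and 98.4 CPM in wild type and 45.3, 44.7 and 61.9 in *Ptk6*-/- (log2 fold change -0.87 (standard error 0.23, adjusted p = 0.367)). *Slc6a19* measured 697, 554 and 727 and 316, 407 and 398 CPM (log2 fold change -0.78 (standard error 0.26, adjusted p = 0.374)). In neither gene did the groups overlap. In control males *Slc5a11* had the same order without overlap, at 78.5, 70.7 and 76.2 and 54.4, 70.2 and 62.9 CPM (log2 fold change -0.29 (standard error 0.13, adjusted p = 0.218)), and *Slc6a19* overlapped, at 319, 394 and 479.6 and 375, 542 and 455 CPM. Without female *Ptk6*-/- control 3 edgeR called 9.65% of all genes and 2 of 69 members, *Slc5a11* at -1.01 (adjusted p = 0.0275) and *Slc2a8* at -1.04 (adjusted p = 0.0297), and *Slc36a1* passed the adjusted p at 0.92 (adjusted p = 0.0306).

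Under succinate the genotypes differed in no called member. In males 2 of 72 members had an unadjusted p under 0.05 with edgeR, where 2.72% of all genes did and 0% were called. DESeq2 called 0.354% of all genes and 1 member, *Slc1a2*, the main glutamate carrier of astroglia, which measured 3.09, 0.465 and 4.44 CPM in wild type and 0, 0.228 and 0.0887 in *Ptk6*-/- males. 2 of the 3 wild type libraries lay above the rest. The list of 12 neuron and glia genes summed to 80.5, 81.5 and 129 CPM in the 3 wild type libraries and 65.0 to 78.2 CPM in *Ptk6*-/- males. The part of these cells in the *Slc1a2* difference was not tested. *Slc6a14* measured 0.229, 0 and 0.241 and 0.549, 1.17 and 2.35 CPM in the 2 genotypes, at most 2.35 CPM in any library. *Slc6a8* measured 650.4, 532 and 632 and 869, 1098 and 1059 CPM without overlap (log2 fold change 0.76 (standard error 0.36, adjusted p = 1.000)), and the cystine exchanger *Slc7a11* measured 2.36, 2.49 and 1.93 and 0.274, 1.22 and 1.22 CPM (log2 fold change -1.16 (standard error 0.58, adjusted p = 1.000)). Without male *Ptk6*-/- succinate 1 the number at an unadjusted p under 0.05 was 10, 8 higher and 2 lower, and none was called, against 4.82% and 0.0106% of all genes.

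In succinate-treated females 4 of 71 members had an unadjusted p under 0.05, where 4.52% of all genes did, and none was called by edgeR or DESeq2 (0% of all genes by edgeR). *Slc7a5* measured 6.73, 4.80 and 7.29 CPM in wild type and 13.0, 10.9 and 13.5 CPM in *Ptk6*-/- females, without overlap (log2 fold change 0.99 (standard error 0.31, adjusted p = 0.931)). It was higher without overlap in *Ptk6*-/- mice in 3 of the 4 comparisons of genotypes and called in none of the 4. In succinate-treated males, at 14.1, 5.32 and 6.54 and 15.4, 6.20 and 9.89 CPM, the groups overlapped. For genotype, the share of all genes without overlap is given here for control males only, so this tally is not read as a result. *Slc38a6* measured 4.44, 6.23 and 6.18 and 3.78, 2.27 and 3.24 CPM (log2 fold change -0.85 (standard error 0.36, adjusted p = 0.931)). The GABA carrier *Slc6a11* was at 0 in all 3 wild type libraries and at 0.252, 0.276 and 0.271 CPM in *Ptk6*-/- females. *Slc38a3*, a glutamine carrier, measured 1.39, 79.7 and 2.06 and 0.989, 0.395 and 1.02 CPM, and its one high value is the library with heart muscle RNA.

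Over all 24 mice the genotype contrast, which reuses the libraries of the 4 comparisons above, called no member with edgeR or DESeq2 where edgeR called 0.0184% of all genes. 9 of 76 members had an unadjusted p under 0.05, 6 higher and 3 lower, against 13.4% of all genes. Without the 3 libraries that stood apart 7 were higher and 0 lower (17.4% of all genes): of those lower before, *Slc38a3* stood at -0.19, *Slc2a4* at -0.23 and *Slc1a2* at -0.997 (unadjusted p of 0.403, 0.161 and 0.0987). With all 24 libraries *Slc7a5* had the smallest p of the members, at a log2 fold change of 0.69 (standard error 0.17, adjusted p = 0.245), and *Slc36a1* stood at 0.80 (standard error 0.25, adjusted p = 0.284).

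Succinate was set against water next, in each sex and genotype. In wild type females 3 brush border carriers of the top 10 were low in succinate mice 1 and 2 and not in mouse 3. *Slc15a1* measured 680.1, 457 and 636 CPM in water and 128, 96.8 and 566 CPM under succinate. *Slc6a19* measured 697, 554 and 727 and 158, 129 and 493 CPM, and *Slc3a1* measured 361, 245 and 351 and 83.1, 43.1 and 269.6 CPM. The third succinate library lay within the range of the controls for *Slc15a1* and *Slc3a1* and below it for *Slc6a19*.

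No member was called in wild type females by edgeR or DESeq2 (0% of all genes by edgeR), and 11 of 68 had an unadjusted p under 0.05, 4 higher and 7 lower under succinate, against 7.77% of all genes. The aromatic amino acid carrier *Slc7a15* (ENSMUSG00000020600, chromosome 12, 8578483 to 8649066) measured 132, 99.6 and 123 CPM in water and 23.2, 17.5 and 79.3 CPM under succinate, lower without overlap at a log2 fold change of -1.54 (standard error 0.56, adjusted p = 0.617). The heavy chain *Slc3a2* measured 392, 445 and 433 and 221, 207 and 264 CPM (log2 fold change -0.86 (standard error 0.27, adjusted p = 0.611)). GLUT1 (*Slc2a1*; ENSMUSG00000028645, chromosome 4, 118965908 to 118995180) went the other way, at 13.3, 18.9 and 14.6 CPM in water and 45.2, 35.0 and 19.7 CPM under succinate, higher without overlap at 1.11 (standard error 0.35, adjusted p = 0.611). Without overlap 5 members lay higher and 11 lower, where 6.41% and 6.66% of all genes did. The median log2 fold change was -0.023 over the sugar families and -0.14 over the others, beside 0.027 over all genes.

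2 libraries weigh on the values in wild type females. Female wild type succinate 2 alone carried *Slc38a3* (79.7 CPM against 1.39 and 2.06) and most of *Slc2a4*, the insulin-responsive glucose carrier of heart and skeletal muscle and fat (24.1, 107 and 24.5 CPM), beside its heart list at 18390.5 CPM. Without it 3 members had an unadjusted p under 0.05 (4.33% of all genes), and *Slc2a1* stood at 1.09 and *Slc7a15* at -1.18 on the log2 scale. Without female wild type succinate 3, edgeR called 12 of 67 members, where it called 3.23% of all genes. Among them were *Slc15a1* at -2.35 (adjusted p = 0.0214), *Slc6a19* at -2.15 (adjusted p = 0.0212) and *Slc2a1* at 1.40 (adjusted p = 0.0406), with 2 libraries left in that group. The library left out was singled out above by its carrier values, so these calls are not separate evidence of a succinate effect.

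*Ptk6*-/- females given succinate had the most members at a low p. 18 of 72 had an unadjusted p under 0.05, 5 higher and 13 lower under succinate, against 10.7% of all genes. edgeR called none, where it called 0.0879% of all genes, and DESeq2 called 2.24% of all genes and 3 members: *Slc1a4*, *Slc5a12* and *Slc5a6*. *Slc1a4*, a neutral amino acid exchanger (ENSMUSG00000020142, chromosome 11, 20252180 to 20282713), measured 13.8, 10.5 and 9.27 CPM in water and 21.8, 27.2 and 26.5 CPM under succinate, higher without overlap at a log2 fold change of 1.14 (standard error 0.27, adjusted p = 0.285). The fructose carrier *Slc2a5* measured 27.0, 29.5 and 28.0 and 62.3, 38.1 and 62.1 CPM, also higher without overlap (log2 fold change 0.92 (standard error 0.27, adjusted p = 0.378)). *Slc2a1* measured 16.6, 16.3 and 26.7 and 23.0, 58.3 and 41.6 CPM, where 1 control exceeded 1 succinate library.

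Downwards in *Ptk6*-/- females, the vitamin carrier *Slc5a6* measured 22.6, 30.9 and 52.7 CPM in water and 16.8, 3.85 and 7.09 CPM under succinate (log2 fold change -1.97 (standard error 0.57, adjusted p = 0.376)), with counts that may include those of the overlapping gene. The monocarboxylate carrier *Slc5a12* measured 20.2, 45.3 and 16.4 and 6.06, 0.158 and 0.475 CPM (log2 fold change -3.65 (standard error 1.20, adjusted p = 0.408)). Both chains of the cystine carrier lay lower, *Slc3a1* at 204, 265 and 272 and 157, 70.3 and 127 CPM (log2 fold change -1.09 (standard error 0.35, adjusted p = 0.402)) and *Slc7a9* at 179, 239 and 477 and 155, 108 and 146 CPM (log2 fold change -1.16 (standard error 0.41, adjusted p = 0.423)). The basolateral light chain *Slc7a7* measured 166, 239.6 and 366 and 144, 58.5 and 119 CPM (log2 fold change -1.29 (standard error 0.43, adjusted p = 0.417)), and the glycine carrier *Slc6a9* measured 14.2, 22.8 and 19.9 and 10.9, 8.35 and 11.2 CPM (log2 fold change -0.93 (standard error 0.28, adjusted p = 0.385)). *Slc38a4* was at or under the floor of 3 counts in the controls, at 0.0709, 0 and 0 CPM, and at 0.612, 0.355 and 0.424 CPM under succinate.

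Without overlap of the groups 7 members lay higher and 16 lower in succinate-treated *Ptk6*-/- females, where 10.2% and 11.0% of all genes did. The sugar families had a median log2 fold change of 0.061 and the others one of -0.34, beside -0.040 over all genes. RNA of other cell types and of the epithelium differed between the same groups. The enterocyte list summed to 62658 to 68082 CPM in wild type females on water and 32572 to 46076 under succinate, and to 33530.2 to 73931 and 22299 to 30022 CPM in *Ptk6*-/- females. The tuft cell list, of which 19 of 20 genes passed the count minimum, summed to 117, 81.6 and 102 CPM and 622, 572 and 207 CPM in wild type females and to 87.6, 103 and 107 and 296, 571 and 625 CPM in *Ptk6*-/- females. The list of the distal small intestine summed to 8037, 7300.0 and 7773 and 3376, 2056 and 5472 CPM in wild type females. In *Ptk6*-/- females it summed to 5360.3, 8898 and 8326 and 3282, 2727 and 2176 CPM. The list of the proximal small intestine overlapped in both genotypes. Its sums were 7206, 4721 and 6013 and 10789, 6674 and 6264 CPM in wild type females. They were 3431, 4389 and 5629 and 4347, 3327 and 6364 CPM in *Ptk6*-/- females. In wild type females the fibroblast list summed to 666, 550.1 and 601 CPM in water and 1304, 1000.4 and 765 CPM under succinate, without overlap, and the endothelial and lymphoid follicle lists were likewise higher, at 272 to 310.2 and 320.5 to 521 CPM and at 19.6 to 42.0 and 55.3 to 123 CPM. Their smooth muscle list overlapped, at 3865 to 4832 and 4804 to 8389 CPM. The T lymphocyte list was lower without overlap in both genotypes, at 181 to 348 CPM in water and 69.5 to 152 CPM under succinate in wild type females and 135 to 353 and 70.3 to 129 CPM in *Ptk6*-/- females. The part of these shifts in the carriers' values was not tested.

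**Figure D3:**
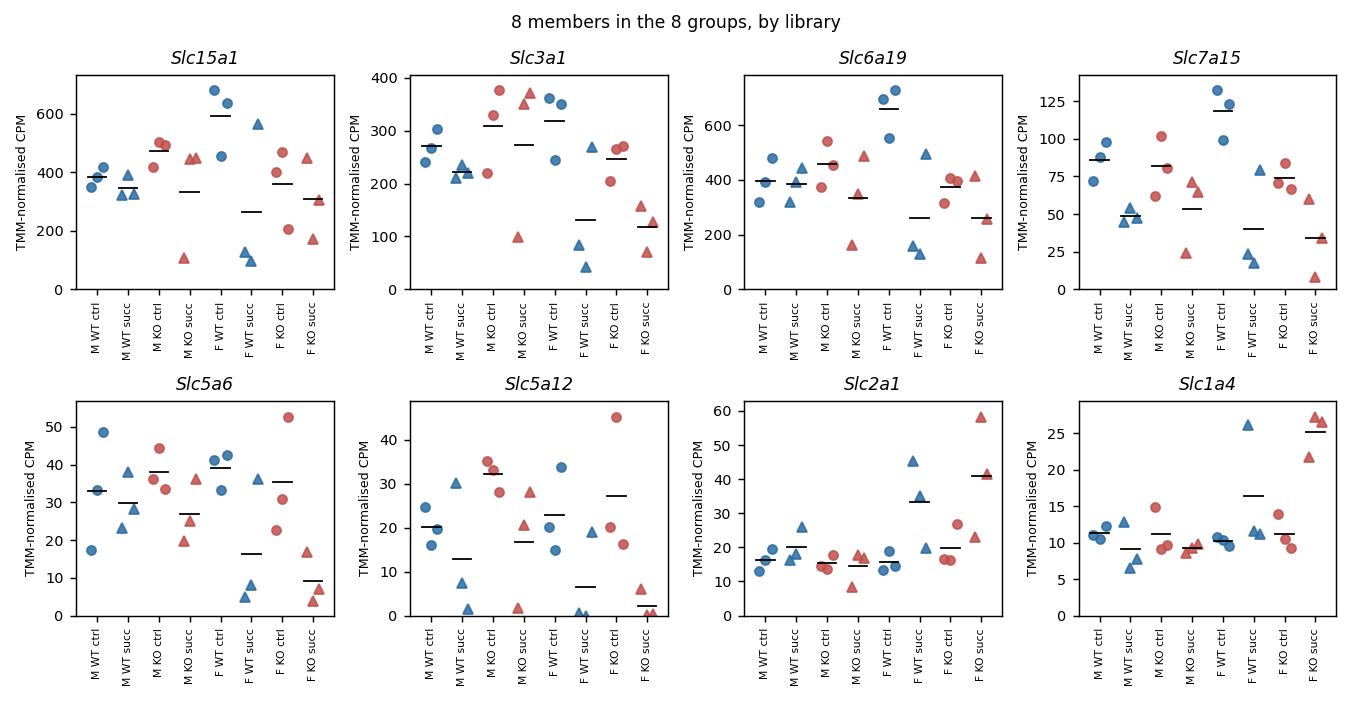
TMM-scaled CPM of 8 members in each of 24 libraries by group, drawn as in the plot of genotypes (circles controls, triangles succinate, blue wild type, red *Ptk6*-/-, bars group means). *Slc7a15* is lower under succinate than in water without overlap in wild type males, wild type females and *Ptk6*-/- females, and female wild type succinate 3 stands above its group in the first 6 genes, at 566 CPM for *Slc15a1*.

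In wild type males 4 of 70 members had an unadjusted p under 0.05, 1 higher and 3 lower under succinate, where 4.07% of all genes did. None was called by edgeR or DESeq2 (0% of all genes by edgeR). *Slc7a15* again lay lower without overlap, at 72.1, 88.0 and 98.0 CPM in water and 45.0, 53.8 and 47.5 CPM under succinate (log2 fold change -0.83 (standard error 0.19, adjusted p = 0.947)). The urate carrier *Slc2a9* measured 28.7, 28.7 and 35.9 and 23.5, 17.5 and 16.9 CPM (log2 fold change -0.70 (standard error 0.21, adjusted p = 0.947)). *Slc2a2* measured 27.7, 30.0 and 37.7 and 25.8, 11.5 and 12.0 CPM. Both members of the Slc2a family lay lower under succinate without overlap of the groups.

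The member highest in fold change in wild type males was *Slc1a2*, at 0.485, 0.347 and 0.182 CPM in water and 3.09, 0.465 and 4.44 CPM under succinate, with 2 of the 3 libraries above the rest. The neuron and glia list summed to 56.2, 65.3 and 57.0 CPM in water and 80.5, 81.5 and 129 CPM under succinate; its part in these values was not tested. The GABA carrier *Slc6a11* measured 1.76, 0 and 2.15 CPM under succinate. *Slc6a17*, a neutral amino acid carrier of neurons, measured 1.94, 3.06 and 2.67 and 2.90, 3.80 and 5.28 CPM (log2 fold change 0.63 (standard error 0.34, adjusted p = 0.947)). Its groups overlapped, as did those of the glial glutamate carrier *Slc1a3*, at 0.44 (standard error 0.64, adjusted p = 0.952). The choline carrier *Slc5a7* also overlapped, at -0.079 (standard error 0.73, adjusted p = 0.993). Male wild type succinate 1 differed from the other 2 in several epithelial carriers: *Slc6a6* measured 163, 45.8 and 56.8 CPM and *Slc36a1* 80.9, 30.1 and 34.3 CPM. Without that library edgeR called 5.8% of all genes and 5 of 67 members, all lower under succinate: *Slc2a2* at -1.47, *Slc6a6* at -1.27, *Slc43a3* at -1.30, *Slc2a10* at -1.41 and *Slc5a12* at -2.24 on the log2 scale. The library was singled out by its carrier values, so these calls are not separate evidence of a succinate effect.

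In *Ptk6*-/- males 3 of 71 members had an unadjusted p under 0.05, 1 higher and 2 lower, where 7.75% of all genes did, and none was called by edgeR or DESeq2 (0% of all genes by edgeR). *Slc15a2* measured 1.34, 0.338 and 2.11 CPM in water and 3.84, 11.7 and 6.56 CPM under succinate (log2 fold change 2.59 (standard error 0.68, adjusted p = 0.600)). Its values ran from 0 to 11.9 CPM over the 24 libraries. *Slc43a3*, a carrier of purine bases, measured 33.4, 22.9 and 27.9 and 5.21, 12.7 and 20.7 CPM (log2 fold change -1.09 (standard error 0.41, adjusted p = 0.600)), and *Slc6a6* measured 176, 189.8 and 178 and 51.6, 121 and 136 CPM (log2 fold change -0.81 (standard error 0.33, adjusted p = 0.600)). *Slc2a13*, an inositol carrier, measured 3.34, 2.67 and 2.94 and 7.95, 4.50 and 3.59 CPM (log2 fold change 0.84 (standard error 0.41, adjusted p = 0.600)), with its highest value in male *Ptk6*-/- succinate 1. Of the 71 members 56 lay below 0 in this comparison, with a median log2 fold change of -0.24 beside -0.097 over all genes, and without male *Ptk6*-/- succinate 1 the median was -0.10 and 8 members had an unadjusted p under 0.05.

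**Figure D4:**
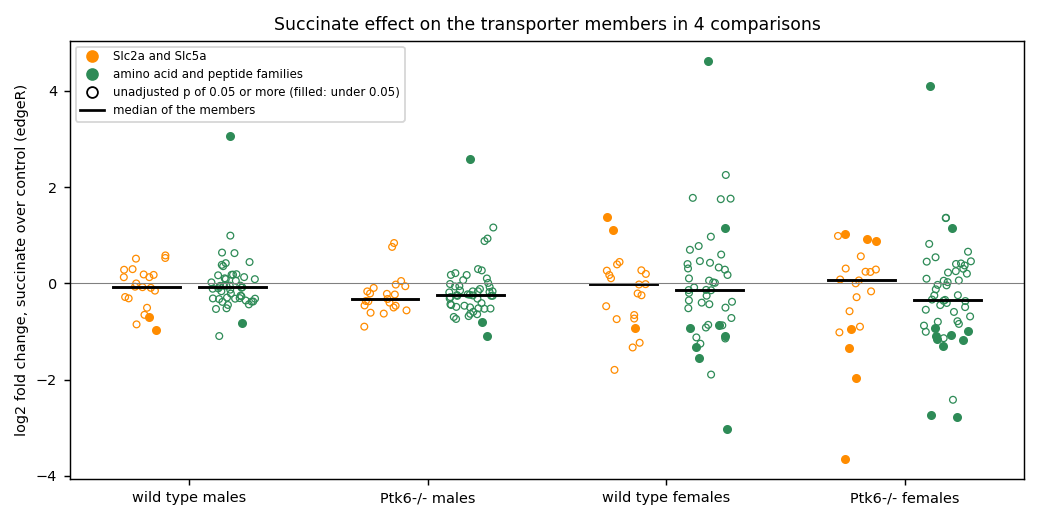
Log2 fold change of succinate over control for each tested member (vertical axis) in the 4 comparisons (horizontal axis), sugar families in orange and the others in green; filled points have an unadjusted p under 0.05 and bars are medians. The green median in *Ptk6*-/- females lies at -0.34 and the orange one at 0.061; fitted values of genes near 0 counts, such as the highest green point there, depend on the prior count of the fit.

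Over all 24 mice edgeR called no member between succinate and water, where it called 0.728% of all genes, and DESeq2 called 1.8% of all genes and 2 members, *Slc7a15* and *Slc15a5*. 23 of 76 members had an unadjusted p under 0.05, 4 higher and 19 lower, against 16.1% of all genes. *Slc7a15* had the smallest p, at a log2 fold change of -1.02 (standard error 0.27, adjusted p = 0.0689). After it came *Slc7a7* at -0.72 (standard error 0.20, adjusted p = 0.0931) and *Slc7a9* at -0.66 (standard error 0.19, adjusted p = 0.114), the light chains of the basolateral and brush border heterodimers. *Slc2a1* was the member with the smallest p among those higher, at 0.59 (standard error 0.17, adjusted p = 0.121). *Slc15a5* was listed at 0 in all 6 female succinate libraries and at no more than 0.618 CPM in any library, so that its fold change rests on a few counts. The medians over the sugar families and the others were -0.093 and -0.26, beside -0.0025 over all genes, and without the 3 libraries that stood apart 18 members had an unadjusted p under 0.05 and the median of the members moved from -0.16 to -0.097.

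By role, the lists of carriers on both faces of the enterocyte had medians below 0 over all 24 mice. The shares and the median of all genes are those given above for succinate over all 24 mice. The 8 brush border members of the sugar families had a median log2 fold change of -0.47 with 3 at an unadjusted p under 0.05. Among these 8, *Slc5a11*, *Slc5a8*, *Slc5a12* and *Slc5a6* carry inositol, monocarboxylates or vitamins rather than sugars. In *Ptk6*-/- females 3 of the 8 (*Slc5a1*, *Slc2a5* and *Slc5a9*) stood above 0 under succinate and 5 below. In wild type females 2 of the 8 stood above 0, in wild type males 1 and in *Ptk6*-/- males 0. *Slc5a1* stood at 0.24 in *Ptk6*-/- females, with overlap. It was lower without overlap in wild type females, at -0.66 (standard error 0.38, adjusted p = 0.709). In wild type and *Ptk6*-/- males it stood at -0.093 and -0.22, with overlap in both. Over all 24 mice the 8 brush border amino acid carriers had a median of -0.50 with 4 at that p. The 8 basolateral carriers had -0.35 with 4, and the 5 oligopeptide carriers 0.26 with 1. edgeR called none of these members, and DESeq2 called the oligopeptide carrier *Slc15a5*. The 22 enterocyte genes had a median of -0.56 with 16 at an unadjusted p under 0.05 and none called, and of the 19 tuft cell genes 12 were called higher at a median of 1.56.

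**Figure D5:**
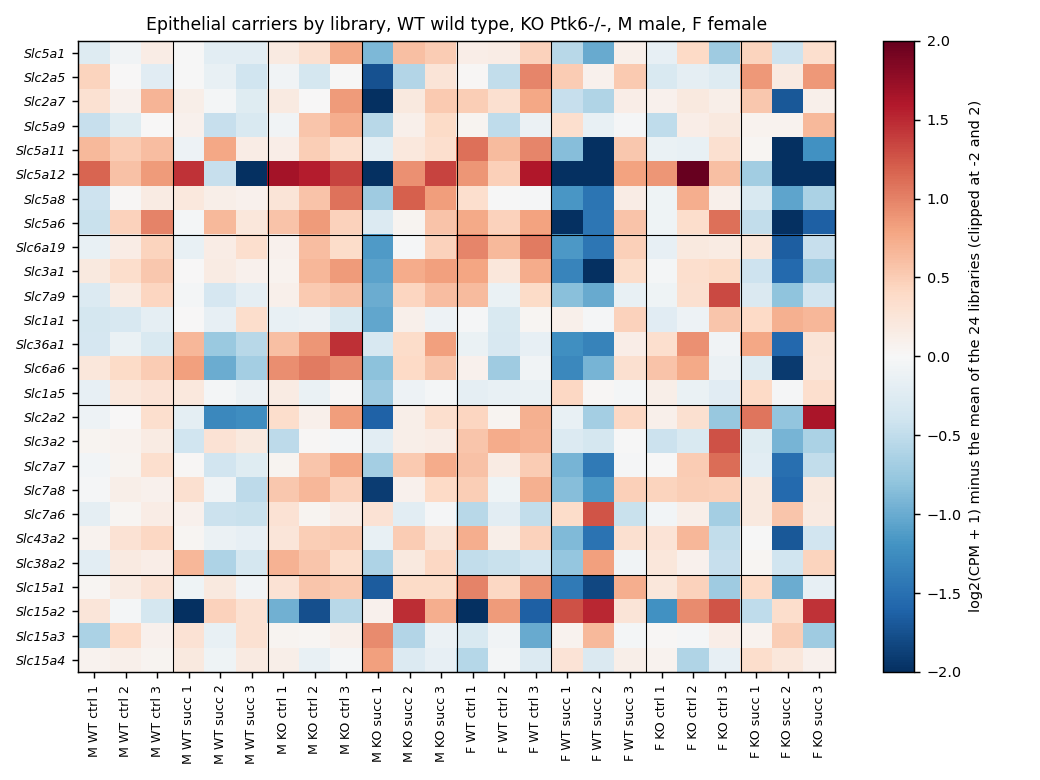
Log2(CPM + 1) of the 26 carriers of the epithelial lists (one row each, in the order brush border sugar families, brush border amino acid, basolateral and oligopeptide, split by lines) in each of 24 libraries (columns), as the difference from the gene's mean, clipped at -2 and 2. Blue columns mark male *Ptk6*-/- succinate 1, female wild type succinate 1 and 2, and female *Ptk6*-/- succinate 2, and *Slc5a12* and *Slc15a2* vary most between libraries.

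Partners of the carriers were set beside them. Of 23 partner genes (accessory proteins, ion pumps and exchangers, fructose-handling enzymes and transcription factors) 20 were tested for succinate over all 24 mice. Of these 9 had an unadjusted p under 0.05 and none was called, with a median log2 fold change of -0.45. The shares and the median of all genes are those given above for succinate over all 24 mice. The imino acid carrier **Slc6a20a** stood at -0.86 (adjusted p = 0.229) and the transcription factor *Hnf4a* at -0.48 (adjusted p = 0.226). In control males 10 of the 20 tested partners stood above 0 and 10 below, at a median of -0.015. Of these, 2 passed the adjusted p by edgeR, beside the share of all genes given with *Slc6a6* above. 1 of the 2, the only partner called, was **Slc9a3**, the brush border sodium-proton exchanger that sustains proton-coupled uptake. It was higher in *Ptk6*-/- at a log2 fold change of 1.46 (adjusted p = 0.0349). The share of all genes called there is given with *Slc36a1* above. The value of this exchanger with length as an offset is not reported here. Genes of the amino acid starvation response had a median of 0.0063 under succinate over all 24 mice, with 2 of 14 tested at an unadjusted p under 0.05 and none called, and a median of -0.19 with 2 of 14 in control males. The shares of all genes at that p are given above for both comparisons.

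Between sexes no member was called over all 24 mice by edgeR or DESeq2 (edgeR called 0.360% of all genes), and 14 of 76 had an unadjusted p under 0.05, 9 higher and 5 lower in females, against 15.3% of all genes. *Slc2a1* stood at 0.63 (standard error 0.17, adjusted p = 0.118) and *Slc1a4* at 0.54 (standard error 0.15, adjusted p = 0.122). In the controls the sexes overlapped in both: *Slc2a1* measured 13.1, 16.4 and 19.4 CPM in male and 13.3, 18.9 and 14.6 in female wild type controls, and *Slc1a4* 11.0, 10.5 and 12.2 and 10.8, 10.4 and 9.50.

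The interaction tests gave no called member by edgeR or DESeq2. Between genotype and succinate, 2 of 76 members had an unadjusted p under 0.05 in males (3.95% of all genes, 0% called) and 3 in females (8.21% of all genes, 0% called). The 3 in females belonged to Slc38a: *Slc38a3*, at -5.40 with the heart RNA library and -1.43 (unadjusted p = 0.0278) without the libraries that stood apart, *Slc38a6* at -1.30 (standard error 0.44, adjusted p = 0.468) and *Slc38a7* at -0.96 (standard error 0.39, adjusted p = 0.522). *Slc38a6* measured 5.65, 4.02 and 5.43 CPM in water and 4.44, 6.23 and 6.18 under succinate in wild type females, and 4.75, 6.42 and 9.38 and 3.78, 2.27 and 3.24 CPM in *Ptk6*-/- females. Between sex and genotype in control mice 2 members had an unadjusted p under 0.05, where 2.40% of all genes did and 0% were called. *Slc36a1* was not among them, at -0.64 (standard error 0.70, adjusted p = 1.000) for the difference of its genotype effect between females and males.

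A joint test of any difference among the 8 groups called 3 of 76 members at an adjusted p under 0.05, where 2.54% of all genes passed, and 19 had an unadjusted p under 0.05 against 15.3%. The 3 were *Slc38a3* (adjusted p = 0.00169), *Slc1a4* (adjusted p = 0.0350) and *Slc2a1* (adjusted p = 0.0438). *Slc38a3* (ENSMUSG00000010064, chromosome 9, 107527833 to 107546212) measured 79.7 CPM in the library with heart RNA and at most 2.06 CPM in each of the other 23, and its adjusted p without that library was 0.898. Without all 3 libraries that stood apart, the adjusted p was 0.0913 for *Slc1a4* and 0.132 for *Slc2a1*, and no member passed. The means of *Slc1a4* were 25.2 ± 2.97 CPM in succinate-treated *Ptk6*-/- females and 16.3 ± 8.47 CPM in succinate-treated wild type females (SD, n = 3), against 9.08 to 11.2 CPM in the other 6 groups. Those of *Slc2a1* were 41.0 ± 17.6 and 33.3 ± 12.8 CPM in the same 2 groups.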

How the data were processed

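RNA of the distal jejunum of 24 mice was sequenced as paired reads of 150 bases from poly(A) libraries. Per the study's methods, the authors trimmed reads with Cutadapt, aligned them with HISAT2 and assembled and quantified transcripts with StringTie, and the labels give GRCm39. The deposited tables hold raw read counts per gene, and FPKM that the authors scaled to transcript length and mapped reads. The counting tool and its strand setting are not given in the sources used here.

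Counts were tested with edgeR 4.0.16 (quasi-likelihood, TMM) in R 4.3.3 over all genes for which 3 or more libraries of the comparison held 10 or more counts, or of all 24 for contrasts over all groups, with Benjamini-Hochberg adjustment. There were 15 comparisons. Interactions are differences of differences, and sex effects are female minus male. Apart from the alternative fits on FPKM named below, deposited FPKM served only to compare genes with each other. The reason is that male wild type control 1 and male *Ptk6*-/- succinate 1 differed by -1.03 and -1.63 on the log2 scale (FPKM minus CPM). No 2 libraries agreed within sampling noise (lowest chi-square per degree of freedom 38.8).

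Alternatives were DESeq2 1.42.0, its size factors in edgeR, no count filter, the replicate number as a block, gene length as an offset, limma 3.58.1 on log2(FPKM + 1) and log2(FPKM + 0.1), 1 fit over all 24 libraries, each library left out, and the 3 libraries that stood apart left out. Named are the carriers of the 4 role lists, the 10 members highest in FPKM, members past an adjusted p of 0.05, and in each comparison of 2 groups the 2 with the smallest p in each direction; other named members were chosen after their values were seen. Some results, among them values of single genes, are not reported here. Members and lists were chosen with earlier results of these data known. The fits were tested on simulated data. Depth of 8080321 to 52824743 counts limits members below about 1 CPM to a few counts in the shallowest library.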

Additional observations from a re-analysis of the deposited data

How the results depend on the processing

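Of the 15 comparisons, those not named here kept their count of called members under every alternative. For any difference among the 8 groups, called at 3 members, DESeq2 called 11, the replicate block 1 and the length offset with the replicate block 1, while the 3 limma fits on FPKM and the fit without the libraries that stood apart called 0. For genotype in control males, called at 1, DESeq2 called 3 and the count was 0 with the length offset, the length offset with the replicate block, the replicate block, 1 fit over all 24 libraries and each of the 3 limma fits. DESeq2 also called 1 member for genotype in succinate-treated males, 3 for succinate in *Ptk6*-/- females and 2 for succinate over all 24 mice, where the length offset called 1; edgeR's count was 0 in each. Leaving out 1 library at a time gave 1 to 9 members for any difference among the 8 groups, 0 to 1 for genotype in control males, 0 to 2 in control females, 0 to 5 for succinate in wild type males, 0 to 12 in wild type females, 0 to 6 for succinate over all 24 mice and 0 to 2 for sex. The causes were not tested. The share of all genes called also changed between fits, and it is given above for only some of them. These counts are therefore not read as results about the members. *Slc38a3* was the one named value to change sign: its sex effect was 1.07, and -0.020 without the libraries that stood apart.

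*Slc36a1* in control males kept its direction under all 17 alternatives and an adjusted p under 0.05 in 6 (0.930 at the highest); *Slc6a6* passed in 6 of 17. In the joint test *Slc38a3* passed in 26 of 33, *Slc1a4* in 12 of 34 and *Slc2a1* in 10 of 34. The count for *Slc38a3* comes from fits that keep the library with heart RNA, its only high value. It therefore says nothing of a difference between groups, and without that library the adjusted p was 0.898. Replicate numbers share no litter or day in the labels, and deviations of same-numbered libraries correlated from -0.53 to 0.38, so the numbers were not read as pairs. Groups of 3 mice and a few counts for trace members limit what could be seen.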
